A study of Mus musculus with 6 samples.

Results

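The loci described here are those of 7 genes of the pluripotency network, Pou5f1, Nanog, Klf4, Sall4, Lin28a, Zfp42 and Esrrb, in mouse embryonic fibroblasts (MEFs). Each locus was a fixed mm9 window, and its members were the listed peaks that overlapped the window by at least 1 bp. This gave 12 peaks of 38760 in 6 lists. Of these, 5 of 18185 were in the treated and 4 of 17168 in the untreated H3K4me3 list, and 1 of 821 and 2 of 1242 in the H3K27me3 lists. Neither input list, of 604 and 740 peaks, had a peak in any window. The windows were 11 kb (Pou5f1), 13 kb (Nanog), 12 kb (Klf4), 25 kb (Sall4), 22 kb (Lin28a), 18 kb (Zfp42) and 167 kb (Esrrb) long. They were given with the gene names, and no mm9 gene annotation was used here, so no peak was assigned to a promoter, exon or intron by position.

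The study asked how chemical combinations turn fibroblasts towards other lineages. One group had received the combination called 6TCF, whose components the labels do not name, until day 6, and the other was an untreated control of day 6. Both were primary MEFs of strain C57BL/6, a mixed connective-tissue population that is not a clonal line, and the labels' growth protocol has a change from serum medium to a medium with basic fibroblast growth factor. Each condition had 1 chromatin immunoprecipitation sequencing library titled H3K4me3, 1 titled H3K27me3 and 1 of input DNA, so no difference below has a replicate check. The antibody field names H3K4me2 where the titles have H3K4me3, and H3K4me1 where they have H3K27me3. The titles are followed, and the peak lists do not settle which antibodies were used.

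Trimethylation of histone H3 at lysine 4 (H3K4me3) is found at active and poised promoters, and trimethylation at lysine 27 (H3K27me3) is laid down by Polycomb repressive complexes. Pou5f1 (Oct4), Nanog and Esrrb are transcription factors that hold embryonic stem cells in the pluripotent state. Pou5f1 and Nanog are silent in fibroblasts. Klf4 is one of the factors used to reprogram fibroblasts to induced pluripotent stem cells, and it has roles of its own in differentiated cells. Sall4 is a zinc finger factor of early embryos and germ cells, Lin28a is an RNA-binding protein that blocks maturation of the let-7 microRNAs, and Zfp42 (Rex1) is a zinc finger protein used as a marker of the naive pluripotent state.

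The upstream sequences are shown because promoters rich in CpG are those that commonly carry H3K4me3, and the loci differ in this feature. They are the 250 bases before the RefSeq start in build GRCm38.p6, read 5′ to 3′ on the gene's strand, with each CG in capitals. Their positions belong to that build and were not carried over to the mm9 peaks. RefSeq starts were at hand for 6 of the 7 genes, all but Sall4. Klf4 (chr4:55532476-55532725, minus strand), Lin28a (chr4:134018817-134019066, minus strand), the downstream start of Esrrb (chr12:86421394-86421643, plus strand), the upstream start of Pou5f1 (chr17:35505782-35506031, plus strand) and Zfp42 (chr8:43307010-43307259, minus strand) read as follows.
Klf4: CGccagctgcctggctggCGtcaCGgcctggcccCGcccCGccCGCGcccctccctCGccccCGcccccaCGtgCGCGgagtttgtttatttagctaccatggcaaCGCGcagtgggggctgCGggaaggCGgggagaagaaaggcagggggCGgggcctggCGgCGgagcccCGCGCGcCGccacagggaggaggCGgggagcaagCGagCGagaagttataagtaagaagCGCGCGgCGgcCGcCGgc
Lin28a: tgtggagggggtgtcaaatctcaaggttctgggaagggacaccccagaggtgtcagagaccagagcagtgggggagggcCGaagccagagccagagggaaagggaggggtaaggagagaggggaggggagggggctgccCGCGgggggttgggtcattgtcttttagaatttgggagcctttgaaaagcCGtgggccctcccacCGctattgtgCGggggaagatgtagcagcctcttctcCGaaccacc
Esrrb: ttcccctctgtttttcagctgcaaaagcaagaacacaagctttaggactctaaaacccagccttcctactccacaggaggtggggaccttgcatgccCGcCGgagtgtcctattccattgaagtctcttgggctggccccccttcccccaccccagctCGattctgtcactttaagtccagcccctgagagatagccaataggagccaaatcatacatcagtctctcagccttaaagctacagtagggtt
Pou5f1: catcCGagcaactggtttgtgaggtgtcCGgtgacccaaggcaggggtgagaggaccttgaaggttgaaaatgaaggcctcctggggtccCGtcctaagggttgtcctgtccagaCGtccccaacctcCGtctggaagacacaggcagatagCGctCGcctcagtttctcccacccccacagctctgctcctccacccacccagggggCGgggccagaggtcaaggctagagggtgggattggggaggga
Zfp42: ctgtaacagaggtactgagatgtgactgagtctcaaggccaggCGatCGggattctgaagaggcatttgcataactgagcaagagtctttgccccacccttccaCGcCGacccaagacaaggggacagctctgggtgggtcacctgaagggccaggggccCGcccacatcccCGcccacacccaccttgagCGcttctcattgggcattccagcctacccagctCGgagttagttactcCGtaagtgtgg

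Klf4 stood apart in CpG content. Its upstream 250 bases held 32 CG dinucleotides, a ratio of observed to expected CpG of 0.94, and 91.0% of 32841 RefSeq promoters had a lower ratio. All the others were below the upper quartile of 0.72. Pou5f1 had 8 CG at its upstream start (ratio 0.33) and 6 at its downstream start (0.47). Zfp42 had 9 (0.42), Lin28a had 7 (0.34), Esrrb had 6 at its upstream start (0.26) and 3 at its downstream start (0.19). Nanog had 3 and 2 at its pair of starts (0.18 and 0.10). The median of all promoters was 0.37, so Esrrb, Nanog, Lin28a and the upstream start of Pou5f1 lay below it, and Zfp42 and the downstream start of Pou5f1 lay above it. Loci with a listed H3K4me3 peak in the window (below) ranged from 0.19 at Esrrb to 0.94 at Klf4, with Sall4 not measured. Loci without one ranged from 0.10 at Nanog to 0.47 at Pou5f1. Whether the ratio goes with the presence of a peak was not tested.

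**Figure D1:**
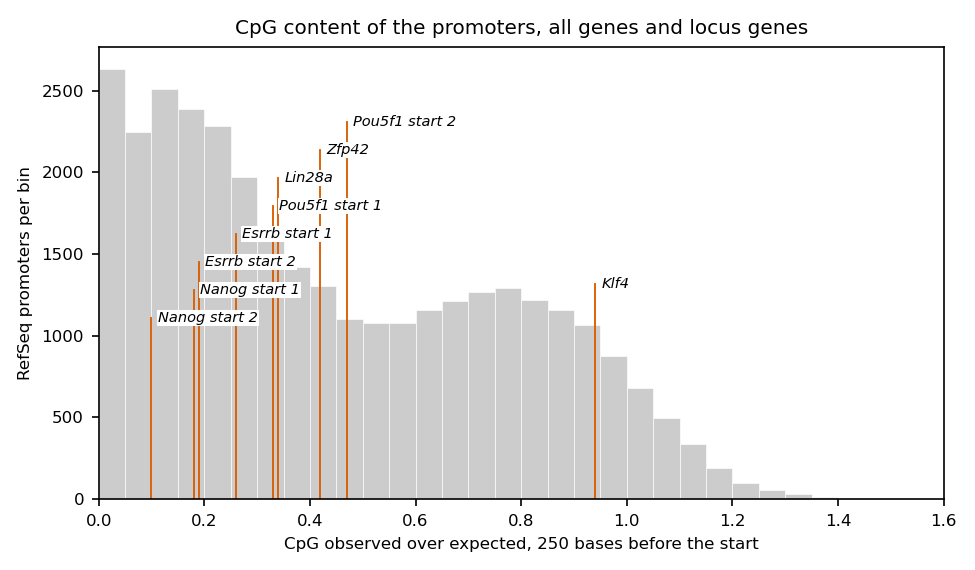
Ratio of observed to expected CpG in the 250 bases before each RefSeq start (x axis) and number of RefSeq promoters per bin of the ratio (grey bars, y axis). Orange lines mark the starts of the locus genes, and their height has no meaning. Klf4, at 0.94, lies in the CpG-rich part of the distribution, and the other starts lie between 0.10 and 0.47.

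Short motifs were searched in the same 250 bases on both strands, with overlapping matches counted, and were chosen after the sequences had been seen. The octamer core TTTGCAT, part of the sequence that POU factors such as Oct4 bind, was found once each at Nanog and Zfp42 and in 4.13% of all promoters. It lay 75 bases before the upstream start of Nanog (chr6:122707403-122707431, GRCm38.p6, plus strand) and 185 bases before the start of Zfp42 (chr8:43307177-43307205, minus strand), and is in capitals here with its neighbouring bases.
Nanog: ttacagcttctTTTGCATtacaatgtcca
Zfp42: ctgaagaggcaTTTGCATaactgagcaag
The GC box GGGCGG, which Sp and Klf factors bind, had 4 matches at Klf4, 2 at Zfp42 and 1 at the upstream start of Pou5f1, and was present in 32.7% of all promoters. None of the starts held TATAAA, which was present in 12.4% of all promoters. A match describes the letters in this stretch and is not a measured binding site.

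Among the 7 loci, 4 had a listed H3K4me3 peak in both conditions, namely Klf4, Sall4, Lin28a and Esrrb. Pou5f1, Nanog and Zfp42 had none in either condition. The share over windows of other genes was not computed, so this count has no background. The same windows therefore held a peak with and without 6TCF, and the conditions differed in the extent or number of the peaks. At Lin28a the peak of both lists straddled an edge of the window, on the side of the neighbouring gene Dhdds. The stretch in which the Lin28a start can lie (below) held a listed peak only in treated cells. Klf4 had nearly the same broad peak in both lists, the Sall4 peak was 2.81-fold wider in treated cells, Esrrb was 1.49-fold wider, and Lin28a had a narrow second peak in the treated list only. A list shows what passed the authors' calling threshold, which is not given in the sources used here, so the mark may still be present where no peak was listed.

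**Figure D2:**
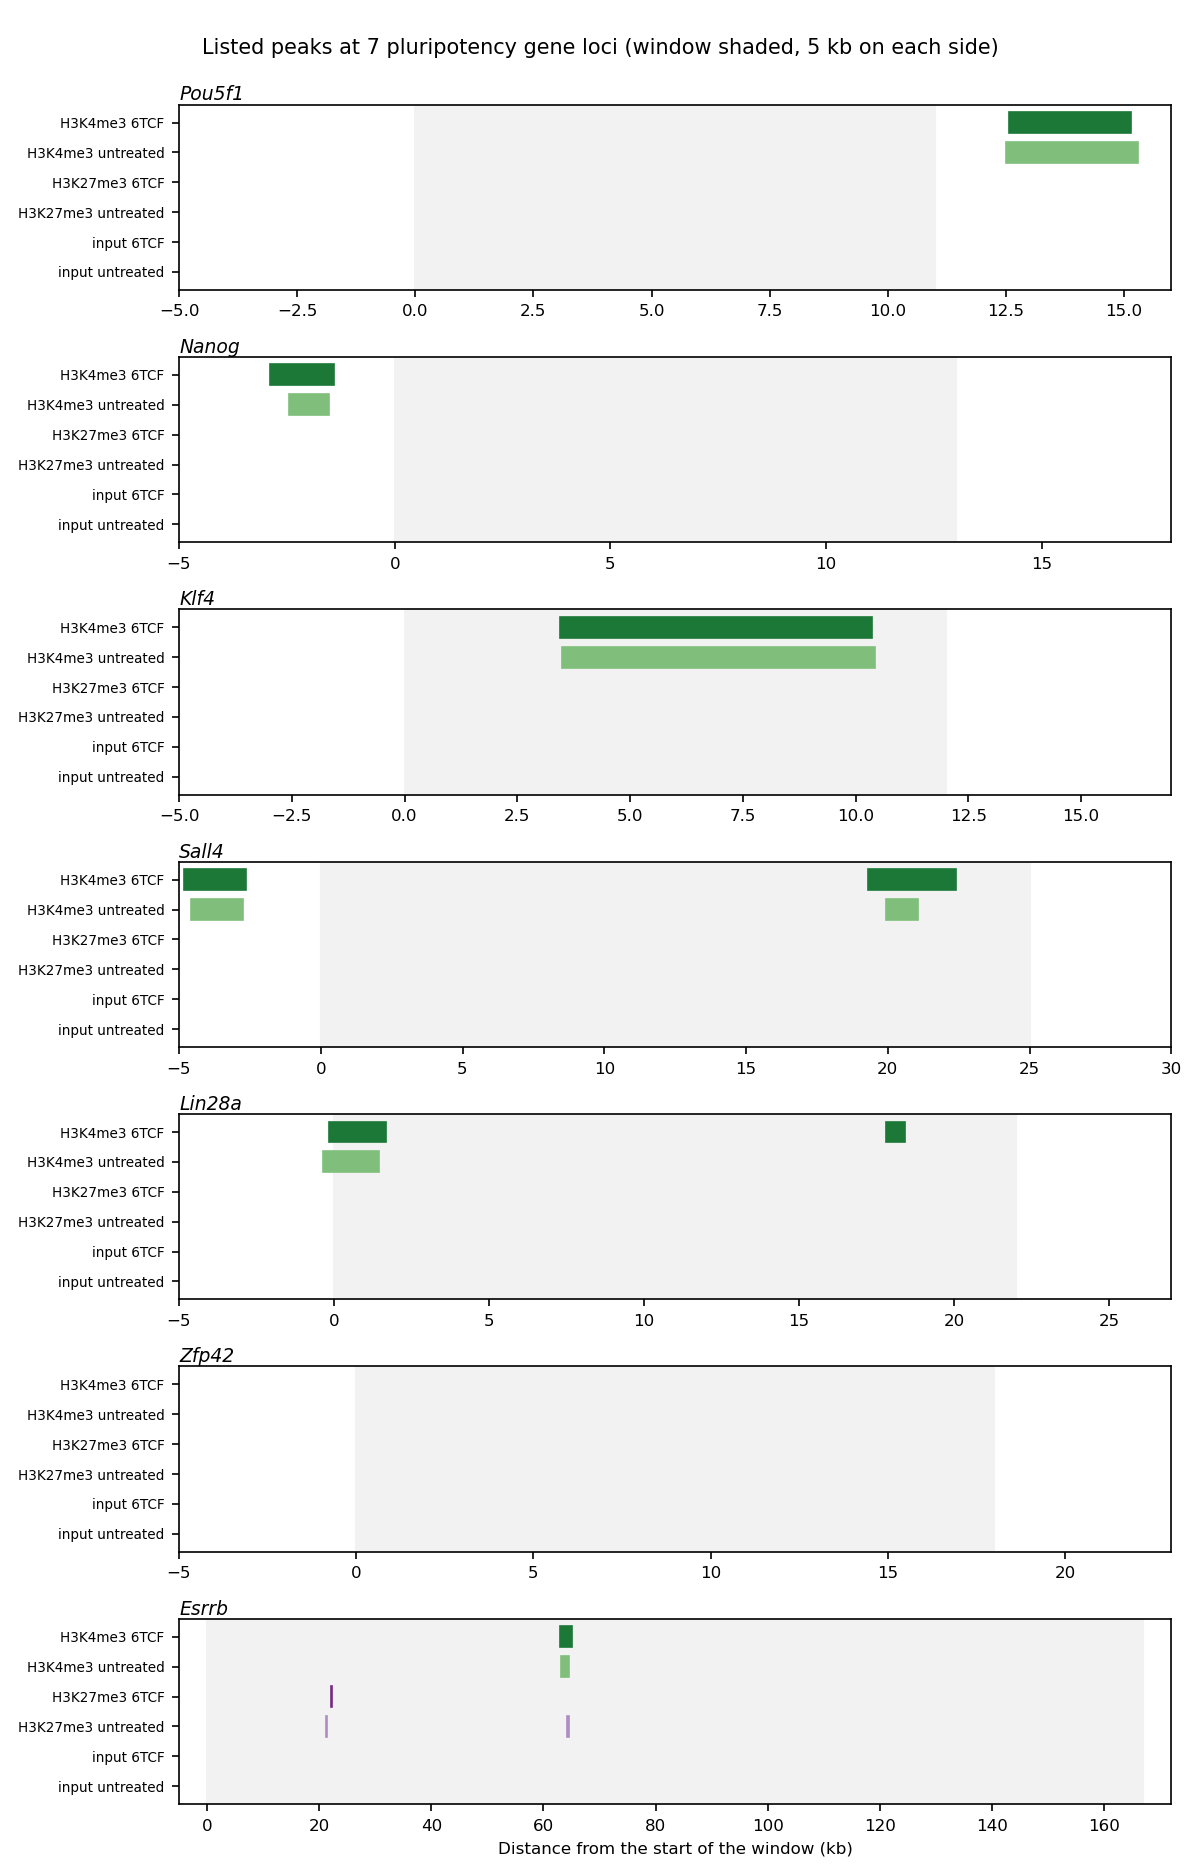
Listed peaks of the 6 libraries at each locus, with the distance from the start of the window in kb on the x axis and 1 row per library. The window is shaded grey and 5 kb on each side are drawn, and the scale differs between loci. H3K4me3 bars stand in the windows of Klf4, Sall4, Lin28a and Esrrb, and H3K27me3 bars only in that of Esrrb.

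Klf4 carried one of the broadest H3K4me3 peaks of the fibroblasts, and its extent was nearly the same in treated and untreated cells. The treated peak spanned 6910 bp (mm9 chromosome 4, 55540447 to 55547356) and the untreated peak 6952 bp (55540482 to 55547433). It ranked 97 of 18185 peaks by width in the treated and 115 of 17168 in the untreated list, where the median widths were 2026 and 2115 bp. The peak was longer than the Klf4 gene, which spans 5.34 kb in RefSeq, and it covered 57.6% of the window in treated and 57.9% in untreated cells. Treated minus untreated width was -42 bp. The treated edge lay 35 bp further out on the left and 77 bp further in on the right. On the log2 scale the ratio of treated to untreated width was -0.01, and over 16153 pairs of overlapping peaks the median was -0.02 and the standard deviation 0.33. A pair is a treated and an untreated peak that meet only one another among all H3K4me3 peaks. No H3K27me3 peak was listed at Klf4, and the nearest ones were 724 kb away in treated and 2910 kb away in untreated cells.

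The Sall4 peak showed the largest difference in width among the 7 loci. It spanned 3113 bp in treated cells (chromosome 2, 168590306 to 168593418) and 1109 bp in untreated cells (168590949 to 168592057). The treated peak contained the untreated one and reached 643 bp further on the left and 1361 bp further on the right. Of all treated peaks 80.6% were narrower than the treated Sall4 peak, while only 17.3% of the untreated peaks were narrower than the untreated one. The log2 ratio of 1.49, a 2.81-fold difference, was exceeded in 41 of 16153 pairs, and 99.5% of the 1615 pairs of like mean width (all pairs were divided into 10 classes of equal size) had a lower ratio. At least a 1.5-fold difference in favour of treated cells was found in 5.03% of all pairs (2.58% in favour of untreated cells), and at 1 of the 4 pairs in the windows, that of Sall4. The share of 1 in 4 has a 95% Wilson interval of 4.56 to 69.9%, which covers counting error only. It treats 4 chosen loci with 1 library per condition as independent, so no conclusion about the loci as a group is drawn from it.

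The wider extent was seen at Sall4 and less at the peak beside it. The nearest H3K4me3 pair, 2.63 kb before the window on the side of the neighbouring gene Atp9a, was 2185 bp wide with 6TCF and 1835 bp without it, a log2 ratio of 0.25. RefSeq places a long non-coding RNA gene, Gm14261, over part of Sall4, and H3K4me3 has no strand, so the peak could belong to either. No H3K27me3 peak was listed in the window, and the nearest were 142 kb away in untreated and 1730 kb away in treated cells.

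Lin28a differed in the number of peaks. The treated list held a peak of 601 bp at chromosome 4, 133573796 to 133574396, between 17.80 and 18.40 kb into the window, and the untreated list held none there. The nearest untreated H3K4me3 peak was 16342 bp away. Among treated peaks this one was among the narrowest, as only 1.41% of the list were narrower. Of the 5 treated peaks in the windows it was the only one in the treated list alone, against 10.2% of all treated H3K4me3 peaks. Among treated peaks of at most 1 kb the share in the treated list alone was 51.1% (23.4% for the untreated list), so a narrow peak without an untreated partner was common in this library. No untreated peak in the windows lacked a treated partner, against 4.73% of the whole untreated list.

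The position of the narrow Lin28a peak can be set against the length of the gene. Lin28a spans 15.9 kb on the minus strand in RefSeq, and the window is 6.13 kb longer. If the whole gene lies in the window at that length, its start lies between 15.9 and 22.0 kb, and the treated-only peak falls in this stretch. The other Lin28a peak was shared and straddled the opposite edge of the window, on the side of the neighbouring gene Dhdds. It spanned 1857 bp in treated (133555831 to 133557687) and 1822 bp in untreated cells (133555632 to 133557453), with a log2 ratio of 0.03. Its treated form was shifted, with the left edge 199 bp further in and the right edge 234 bp further out. No H3K27me3 peak was listed in the Lin28a window, with the nearest at 229 kb in untreated and 932 kb in treated cells.

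Esrrb was the only one of the 7 loci with both marks, and the only one with a listed H3K27me3 peak. Its window was also by far the longest, 167 kb against 11 to 25 kb for the others, so a peak had more room to fall in it. The Esrrb H3K4me3 peak spanned 2031 bp in treated cells (chromosome 12, 87761982 to 87764012) and 1365 bp in untreated cells (87762152 to 87763516). The treated peak reached 170 bp further on the left and 496 bp further on the right. The log2 ratio was 0.57, a 1.49-fold difference, which is just below the 1.5-fold limit, and 94.79% of all pairs had a lower ratio. The untreated list held an H3K27me3 peak of 390 bp at 87763255 to 87763644, on the right side of the H3K4me3 peak. All 390 bp lay inside the treated and 262 bp inside the untreated H3K4me3 peak. No treated H3K27me3 peak was listed there. Absence from the other list was the rule for this mark, as 80.5% of untreated and 70.6% of treated H3K27me3 peaks were in 1 list only.

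An untreated H3K27me3 peak free of input overlap was found at the common part of 395 of the 16153 H3K4me3 pairs (2.45%), of which Esrrb is one. A treated one was found at 0.768% of pairs. The treated H3K27me3 list was also shorter, with 821 against 1242 peaks, and its median width was 149 against 211.5 bp. The part of list size in the difference between 2.45% and 0.768% was not tested. Among the 395 pairs 18.0% were at least 1.5-fold wider in treated cells, against 5.03% of all pairs. Their log2 ratios had a median of 0.26 and a standard deviation of 0.35, and the value of 0.57 at Esrrb lay within 1 standard deviation of that median. The 395 pairs were not matched to all pairs by width. At least 1.5-fold wider treated peaks made up 12.6% of the narrowest of the 10 width classes and 3.22% of the widest. The Sall4 pair, with the larger ratio of 1.49, had no listed H3K27me3 peak in its window. Whether H3K27me3 has a part in the width at Esrrb was not tested.

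The marked part of Esrrb lay inside the window and not at its edge. The treated H3K4me3 peak was 62.98 to 65.01 kb from the start of the window. RefSeq has 2 starts for Esrrb, 60.5 kb apart on the plus strand. If the whole gene lies in the window at its RefSeq length, the upstream start is between 0 and 6.49 kb and the downstream start between 60.5 and 67.0 kb. No H3K4me3 peak was listed in the first stretch in either condition, and the peak of both conditions was in the second. In RefSeq the non-coding gene Gm40483 overlaps part of Esrrb, so a peak in the window may belong to either gene. The remaining H3K27me3 peaks of the locus were a treated peak of 134 bp (87721139 to 87721272) and an untreated peak of 139 bp (87720264 to 87720402), 736 bp apart. They ended 40.7 kb (treated) and 41.7 kb (untreated) before the H3K4me3 peak of the same condition. The median input peak was 146 bp wide with 6TCF and 142 bp without it, and the median H3K27me3 peak 149 bp with and 211.5 bp without. Whether these peaks carry the mark was not tested.

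**Figure D3:**
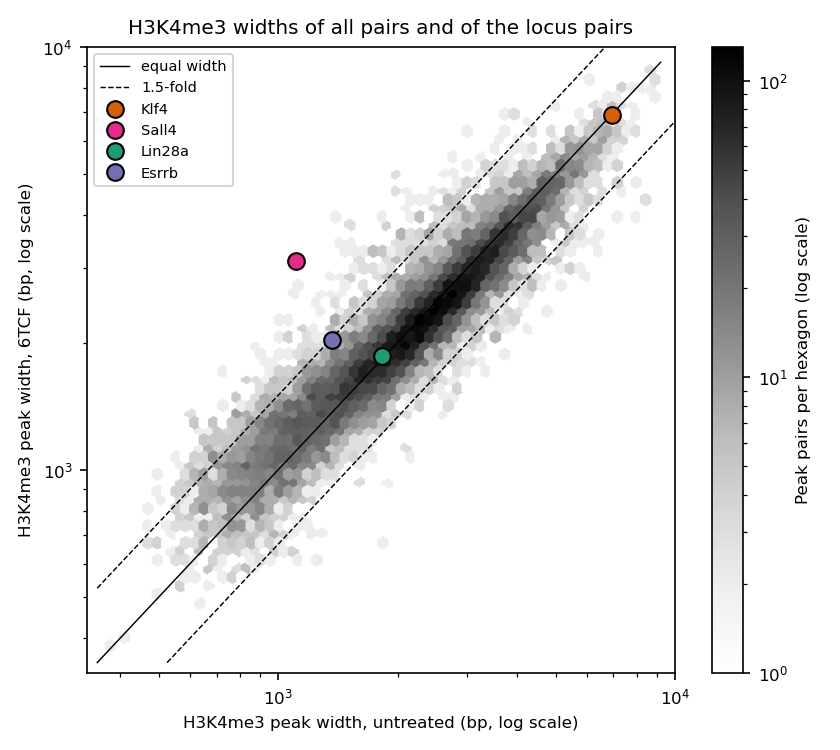
Width of the untreated (x axis) and treated (y axis) H3K4me3 peak in bp on log axes for all 16153 pairs, shown as grey hexagons by number of pairs, with the 4 pairs in the windows as coloured points. The solid line marks equal width and the dashed lines a 1.5-fold difference. Klf4 and Lin28a lie on the line of equal width, Esrrb just below the upper dashed line and Sall4 above it.

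Pou5f1 had no listed peak of either mark in its window in either condition. The nearest H3K4me3 peak was beyond the end of the window, on the side of the neighbouring gene Tcf19. Its width was 2582 bp with 6TCF and 2800 bp without it, and it lay 1.57 and 1.49 kb from the window, with a log2 ratio of -0.12. The nearest H3K27me3 peaks were 63.5 kb away in treated and 33.2 kb away in untreated cells.

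Nanog also had no listed peak in its window, and the H3K4me3 pairs around it were wider in treated cells. A peak of 1477 bp in treated (chromosome 6, 122652108 to 122653584) and 945 bp in untreated cells ended 1.42 and 1.52 kb before the window. This is the side on which transcription of Nanog, a plus-strand gene, begins, and the protein-coding gene next on that side is Dppa3. Its log2 ratio was 0.64. Over all 5 pairs within 50 kb of the window the ratio lay between 0.01 and 0.64 with a median of 0.23. All 5 were above 0, against 46.8% of all pairs, but the smallest difference was 1582 against 1576 bp. These pairs include narrow peaks, and in the narrowest of the 10 width classes the median ratio was 0.14, against -0.06 in the widest. The part of peak width in the Nanog values was not tested. No H3K27me3 peak was listed within 84.5 kb of the window in untreated cells or within 4690 kb in treated cells.

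Zfp42 lay in a region with no listed H3K4me3 or H3K27me3 peak for a long way. The nearest H3K4me3 peak was 1520 kb away in treated and 1620 kb away in untreated cells, and the nearest H3K27me3 peak 2840 and 2950 kb away. It was the only locus besides Esrrb with no H3K4me3 peak within 50 kb outside its window in either condition. For Esrrb the nearest outside peaks were 51.7 kb away in treated and 51.9 kb away in untreated cells.

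**Figure D4:**
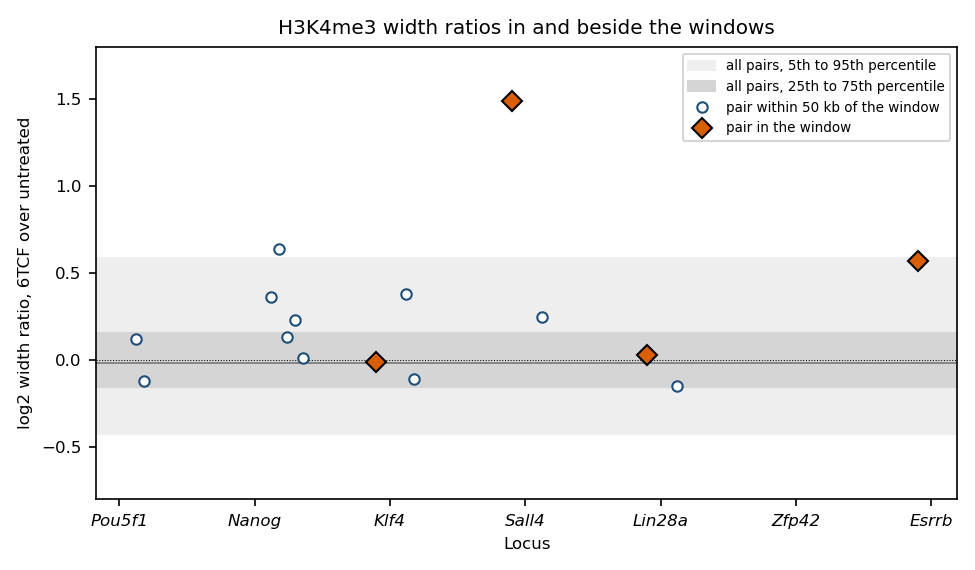
The log2 ratio of treated to untreated H3K4me3 width (y axis) at each locus (x axis), for pairs in the window (orange diamonds) and pairs within 50 kb outside it (open circles). Shaded bands give the central part of all 16153 pairs and the grey line their median of -0.02. Sall4, at 1.49, lies far above the bands, and its flanking pair is at 0.25. The 5 flanking pairs of Nanog lie between 0.01 and 0.64.

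The pairs beside the other windows were few and of mixed direction. Beside Pou5f1 the 2 pairs had log2 ratios of -0.12 and 0.12, and beside Klf4 the 2 pairs had -0.11 and 0.38. The single pair beside Lin28a had -0.15. Of the 4 pairs in the windows, 3 were wider in treated cells, against 46.8% of all pairs, and the 95% Wilson interval of 3 in 4 was 30.1 to 95.4%. With 4 chosen pairs, no conclusion about the loci as a group is drawn from this interval either.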

How the data were processed

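The 6 deposited files are BED peak lists without a header, whose only varying fields are chromosome, start and end. Build mm9 and the tools MACS 1.4.3, HOMER, Bowtie2 2.2.5 and CASAVA 1.7 are named, without their roles, per the submitters' processing notes. Calling threshold, control and read depth were not given in the sources used here. No count, score or height per peak was in the files, so peak width in bp was the only quantity, and it depends on depth, antibody yield and threshold. Starts were converted from 0-based to 1-based positions.

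Peaks were matched to windows and to each other by an overlap of at least 1 bp, with numpy 2.4.6 and scipy 1.17.1 under Python 3.11.15. Overlap counts were checked against bedtools 2.31.1, and the scripts for overlap and width were tested on simulated lists. All 7 loci are named. With 1 library per group no test was made and no p-value is given. Widths were read against all pairs of the lists. The tables of RefSeq genes and promoters are of GRCm38.p6, another build than the peak lists, so only names, gene order, strand, lengths and sequences were taken from them. Other pluripotency genes could not be placed in mm9 and were not analysed here. The loci, windows and measures were chosen with earlier results of these data known. The alternatives were other overlap rules, longer windows, a minimum width, leaving out peaks at input peaks, and, for width ratios, the bases covered in the window and centring on the median of all pairs.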

Additional observations from a re-analysis of the deposited data

How the results depend on the processing

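Of 44 alternative values for 12 results, 38 stayed within 1.5 times the reported count or within 0.05 of the reported log2 ratio, and 6 moved. Several of the 38 could not have moved and show no robustness. No peak in the windows overlapped an input peak, so leaving out such peaks could not change a count. Centring subtracted the same median of -0.02 from every log2 ratio, which is less than the limit of 0.05. At Klf4, Sall4 and Esrrb the bases covered in the window were those of the paired peak alone. With windows longer by 5 kb on both sides, 8 treated and 7 untreated H3K4me3 peaks were counted in place of 5 and 4. The shared peaks beside Pou5f1, Nanog and Sall4 had come in. Loci with a peak rose from 4 to 6 in both conditions, with Pou5f1 and Nanog added, so their lack of a peak depends on the window. This rise lies exactly at the limit of 1.5 times and is therefore counted among the 38. With a minimum width of 1000 bp for H3K4me3 and 200 bp for H3K27me3, the treated-only H3K4me3 peaks fell from 1 to 0, as the 601 bp peak at Lin28a left, and loci with a treated H3K27me3 peak fell from 1 to 0. When an overlap of 50% of a peak's own width was asked for, 2 treated peaks had no untreated partner, as the wider Sall4 peak was added. With all bases covered in the window in place of the paired peak, the log2 ratio at Lin28a was 0.65 in place of 0.03, because the treated-only peak was included and the shared peak was counted only inside the window. The shared peak alone, counted so, gave 0.22 (1688 against 1454 bp). Leaving out peaks at input peaks, and asking for 50% of a peak in the window, changed no count. No paired analysis was possible because each group has 1 library. Depth is unknown, so a peak of 601 bp in 1 list, or a missing one in the other, may lie near the calling threshold of either library.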
